A study of Mus musculus with 9 samples.

Results

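Mras, Naprt, Nuak2 and Arhgef10l were described across the 3 populations sorted from IL-33-treated aged mouse brains. They are 4 of the 24394 genes kept from the deposited count table. They were selected on these counts themselves, reads in every ILC2 and microglia library and 0 counts in every T cell library, so the contrasts with T cells are given as a description without a test. The groups were ILC2 (group 2 innate lymphoid cells, tissue lymphocytes that carry the IL-33 receptor and make type 2 cytokines), T cells, and microglia, the resident macrophages of the brain. All came from C57BL/6 mice aged 20 to 22 months that were given interleukin-33 (IL-33), an alarm cytokine, at 400 ng daily for 7 days. No untreated or young brain was among the samples, so nothing below measures an effect of IL-33 or of age.

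The labels name 3 samples per population. The table has 3 columns headed microglia, 3 headed T and 2 headed ILC2, and a ninth, headed ILC1, matched no label and was not used here. Whether it is the remaining ILC2 sample under a misspelt heading is not known, so ILC2 values rest on 2 libraries. Cells were sorted on surface markers that the labels do not name, and the number of mice behind a library is not given, so a p-value here reflects the spread among libraries alone, and part of that spread may be technical. Libraries held 8376609 to 13585956 counts on genes and were put on the CPM scale (counts of a gene relative to the TMM-scaled library total, times 1000000). On this scale the floor of 3 counts stood at 0.207 to 0.325 CPM. Microglia 1 and microglia 3 also carried neutrophil transcripts at a higher level than microglia 2, and the fold changes of the 4 genes and the calls against microglia are given with microglia 2 alone as well. These are bulk libraries, in which fewer cells that express a gene and less RNA per cell cannot be told apart.

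The 4 genes belong to different pathways. Mras encodes a small GTPase of the RAS family. In its GTP-bound form MRAS joins the scaffold SHOC2 and the phosphatase PP1, a complex that removes an inhibitory phosphate from RAF kinases and so feeds the ERK cascade. Naprt encodes nicotinate phosphoribosyltransferase, which starts NAD synthesis from nicotinic acid (the Preiss-Handler route), whereas NAMPT starts the salvage of nicotinamide. Nuak2 encodes a kinase related to AMPK that is activated by LKB1 and acts on the myosin phosphatase. Arhgef10l encodes a guanine nucleotide exchange factor of the Dbl family, enzymes that switch on small GTPases and through them the actin cytoskeleton, which in lymphocytes and microglia sets cell shape and motility.

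The genes lie on separate chromosomes. In GRCm38 (mm10) with the GENCODE M21 annotation, all 4 are protein coding. Mras spans chr9:99385420-99437381 on the minus strand, with 6 transcripts over 5134 exonic bases. Naprt spans chr15:75890956-75894481 on the minus strand, with 4 transcripts over 2344 exonic bases. Nuak2 spans chr1:132316126-132333488 on the plus strand, with 4 transcripts over 3920 exonic bases. Arhgef10l spans chr4:140514485-140666012 on the minus strand, with 12 transcripts over 5693 exonic bases. Only Naprt shares exon sequence with a neighbour. Its overlap of 277 bases, 11.8% of its exonic length, is with Eef1d, a translation elongation factor gene on the same strand. Eef1d held 2315 and 4371 counts in ILC2, 2395, 4083 and 2272 in T cells, and 1731, 1332 and 861 in microglia, and the T cell libraries with these Eef1d counts held 0 counts on Naprt.

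RefSeq promoter sequences (GRCm38.p6, 250 bases before to 50 after the start) were available for Mras and Arhgef10l and are shown because the start regions of these 2 genes differ in base composition and motifs. Mras, chr9:99436663-99436962, and Arhgef10l, chr4:140665856-140666155, are both printed 5′ to 3′ along the minus strand, the strand of the gene. Capitals mark the GC box GGGCGG on either strand in Mras and the AP-1 motif TGACTCA in Arhgef10l.
Mras: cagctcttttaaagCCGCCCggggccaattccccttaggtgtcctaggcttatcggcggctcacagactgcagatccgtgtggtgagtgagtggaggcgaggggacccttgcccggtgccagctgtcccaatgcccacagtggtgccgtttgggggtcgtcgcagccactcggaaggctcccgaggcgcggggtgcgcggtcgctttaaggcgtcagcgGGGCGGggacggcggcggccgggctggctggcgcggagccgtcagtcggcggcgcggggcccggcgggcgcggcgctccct
Arhgef10l: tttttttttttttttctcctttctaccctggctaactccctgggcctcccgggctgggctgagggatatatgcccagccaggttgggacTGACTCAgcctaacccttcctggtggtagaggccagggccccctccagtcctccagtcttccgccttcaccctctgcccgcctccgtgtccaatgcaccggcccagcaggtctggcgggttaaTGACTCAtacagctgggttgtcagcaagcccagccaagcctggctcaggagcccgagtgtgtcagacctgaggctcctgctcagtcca
The Mras sequence was 71.7% G and C, against a median of 52.7% over the 27025 promoters of the table. It held 36 CG dinucleotides, against a median of 7, and 6.02% of promoters held at least as many. Its GC boxes began at -31 on the strand of the gene and at -236 on the opposite strand. These positions are relative to the only RefSeq start given for Mras. The window lies inside the GENCODE span, whose upstream end is at 99437381, so it does not cover that farther start. The Arhgef10l sequence was 60.0% G and C with 7 CG dinucleotides, and its AP-1 motifs began at -161 and -38. It is the first of 2 starts that the table gives for the gene. Of all promoters, 35.9% held at least 1 GC box and 19.6% at least 2, while 5.17% held the AP-1 motif and 0.204% held it at least 2 times. The motifs to print were chosen after the sequences were seen. Both strands were searched. Neither promoter held the GATA motif AGATAA, found in 11.4% of all promoters, or the PU.1 motif GAGGAAGT, found in 3.28%. Neither held the E-box CACGTG, found in 7.24%, or the TATA box TATAAA, found in 14.2%.

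Mras had its highest levels in ILC2, lower levels in microglia and no count in T cells. It had 452 and 610 counts in ILC2, 0, 0 and 0 in T cells, and 241, 205 and 310 in microglia. These were 36.5 and 48.3 CPM in ILC2, against 24.3, 20.2 and 32.3 CPM in microglia. Both ILC2 libraries lay above every microglia library, by a narrow margin at the edge. The means were 42.4 ± 8.38 CPM in ILC2 (SD, n = 2) and 25.6 ± 6.12 CPM in microglia (SD, n = 3). Against the floor of 3 counts per library in T cells (mean 0.277 CPM), the mean Mras level was at least 153-fold higher in ILC2 and at least 92.6-fold higher in microglia. This bound, like those given below for the other genes, divides a population mean by the mean floor. Single libraries can lie below it.

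Naprt had its highest levels in microglia and lower levels in ILC2. It had 310 and 255 counts in ILC2, 0, 0 and 0 in T cells, and 313, 639 and 275 in microglia. Scaled, that is 25.0 and 20.2 CPM in ILC2, against 31.6, 63.1 and 28.6 CPM in microglia. Both ILC2 libraries were below all 3 microglia libraries, and microglia 2 stood at about 2.2 times the lowest microglia library. Mean levels were 22.6 ± 3.4 CPM in ILC2 (SD, n = 2) and 41.1 ± 19.1 CPM in microglia (SD, n = 3). The lower bounds over T cells were 81.7-fold for ILC2 and 149-fold for microglia.

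Nuak2 was the gene with the widest distance between ILC2 and microglia. It had 105 and 110 counts in ILC2, 0, 0 and 0 in T cells, and 578, 485 and 638 in microglia. Levels were 8.47 and 8.71 CPM in ILC2, against 58.4, 47.9 and 66.4 CPM in microglia. The libraries of each population stayed close together and the 2 populations did not overlap. The averages were 8.59 ± 0.171 CPM in ILC2 (SD, n = 2) and 57.6 ± 9.31 CPM in microglia (SD, n = 3), a ratio of 0.149. Over the T cell floor, Nuak2 was at least 31.0-fold higher in ILC2 and at least 208-fold higher in microglia.

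Arhgef10l varied more between libraries within ILC2 and within microglia than between these 2 populations. It had 982 and 184 counts in ILC2, 0, 0 and 0 in T cells, and 65, 443 and 325 in microglia. In CPM, these were 79.2 and 14.6 in ILC2, against 6.57, 43.7 and 33.8 in microglia. The ILC2 and microglia libraries overlapped, and the highest library exceeded the lowest 5.44-fold within ILC2 and 6.66-fold within microglia. The mean was 46.9 ± 45.7 CPM in ILC2 (SD, n = 2) and 28.1 ± 19.3 CPM in microglia (SD, n = 3). The bounds of the means over T cells were 169-fold for ILC2 and 101-fold for microglia. They do not hold for each library, since the lowest values were 14.6 CPM in ILC2 and 6.57 CPM in microglia. Both values were still above the highest T cell floor, 0.325 CPM.

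Pooled over its 3 libraries, the T cell population allowed each of the 4 genes up to 0.0888 CPM, the level that 3 counts would give. This limit, like the floors, covers counting error only, since reads copied by PCR are not independent molecules. In the fit across the table, the 4 genes were among the 56 genes called higher in ILC2 than in T cells (0.431% of the 13000 tested) and among the 927 called lower in T cells than in microglia (7.13%). Both contrasts entered the choice of the genes, so these calls carry no information about them.

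**Figure D1:**
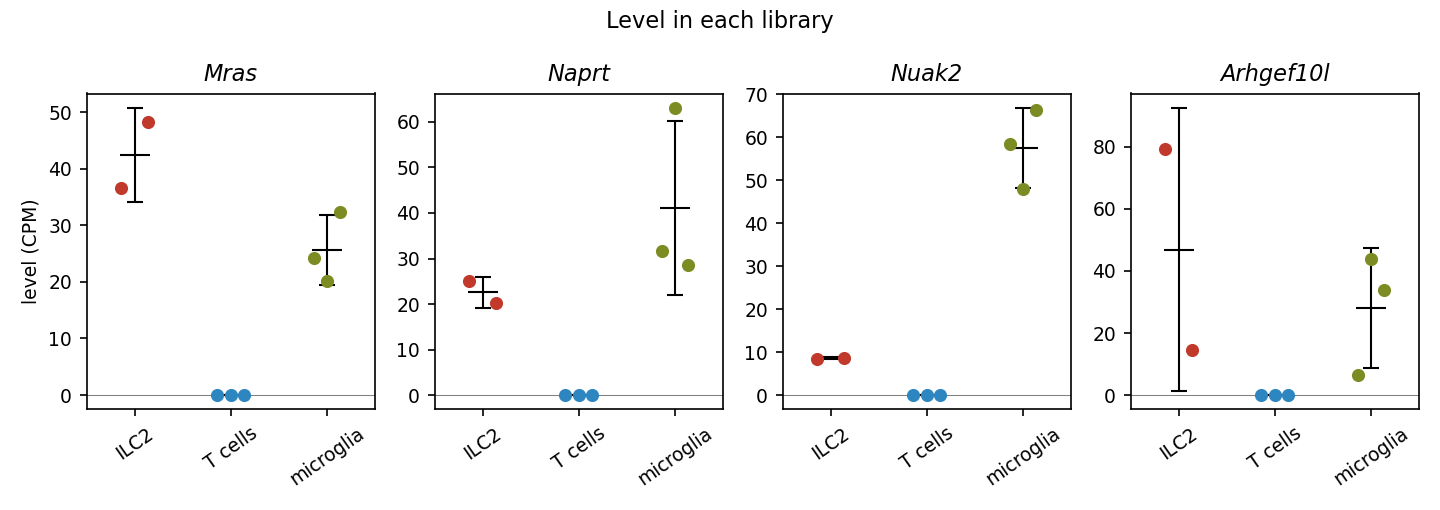
Level of Mras, Naprt, Nuak2 and Arhgef10l in CPM on the vertical axis, for each ILC2, T cell and microglia library (points), with the mean (long bar) and SD (error bar); each panel has its own scale starting at 0. All T cell points are at 0, Nuak2 is at 8.47 and 8.71 CPM in ILC2 against 47.9 to 66.4 CPM in microglia, and Arhgef10l spans 14.6 to 79.2 CPM in ILC2 and 6.57 to 43.7 CPM in microglia.

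Per kilobase of exon, which allows a comparison between genes, the order of the levels differed between the 2 populations. Naprt had the highest mean level in ILC2, at 9.65 CPM per kb, next to Mras at 8.26 and Arhgef10l at 8.24, and Nuak2 followed at 2.19. In microglia Naprt again led, at 17.5 CPM per kb, then Nuak2 at 14.7, Mras at 4.99 and Arhgef10l at 4.93. The first 3 levels in ILC2 did not differ beyond the spread of their libraries, with ranges of 8.62 to 10.7, 7.1 to 9.41 and 2.56 to 13.9 CPM per kb. In microglia Naprt (12.2 to 26.9) overlapped Nuak2 (12.2 to 17.0), and Mras (3.94 to 6.29) overlapped Arhgef10l (1.15 to 7.68), whereas all libraries of Naprt and Nuak2 lay above all those of Mras and Arhgef10l. The ratio of the mean CPM in ILC2 to that in microglia was 1.65 for Mras, 0.55 for Naprt, 0.149 for Nuak2 and 1.67 for Arhgef10l.

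Which of ILC2 and microglia held more of each gene was not part of the choice and was tested in the fit of all 8 libraries. None of the 4 genes passed the threshold of edgeR's two-sided quasi-likelihood test, an adjusted p under 0.05 with a log2 fold change of at least 1 in size. Over all genes tested, 4.99% were called higher and 4.76% lower in ILC2 than in microglia. Of the 4 genes, 1 had an unadjusted p under 0.05, and 1 was called by DESeq2 and 1 by limma-voom, in each case Nuak2. Of all 13000 genes tested, 3126 had an unadjusted p under 0.05 by edgeR, and DESeq2 called 17.9% and limma-voom 16.0%. Nuak2 had a log2 fold change of -2.74 ± 0.75 (SE; adjusted p = 0.0633 by edgeR), and the interval of 2 SE either side ran from -4.24 to -1.24. Its adjusted p was 0.00233 with DESeq2, 0.0323 with limma-voom, 0.0213 with only the 2 populations in the edgeR fit, 0.0474 without T cells 1 and 0.0431 without T cells 2. Across all alternatives the adjusted p ran up to 0.43, so the call on Nuak2 turned on the test and the libraries in it while its fold change, -2.86 to -2.63 with any library left out, moved little.

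The other 3 genes had intervals that held 0. For Mras the log2 fold change was 0.73 ± 0.74 (SE; adjusted p = 0.648 by edgeR), with an interval of -0.75 to 2.20. Naprt gave -0.86 ± 0.79 (SE; adjusted p = 0.6 by edgeR), from -2.44 to 0.72. Arhgef10l gave 0.74 ± 1.05 (SE; adjusted p = 0.772 by edgeR), from -1.36 to 2.84. Each interval allows a difference in either direction, so equal levels were not shown. For Arhgef10l the sign turned on ILC2 1: without that library its log2 fold change was -0.89 (adjusted p = 0.84 by edgeR), and over all omissions it ran from -0.89 to 1.5. Whether both ILC2 libraries lay on 1 side of all microglia libraries was a looser mark. It held for Mras (above), for Naprt and Nuak2 (below) and not for Arhgef10l, against 21.9% of all tested genes with both ILC2 libraries above and 21.1% with both below.

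**Figure D2:**
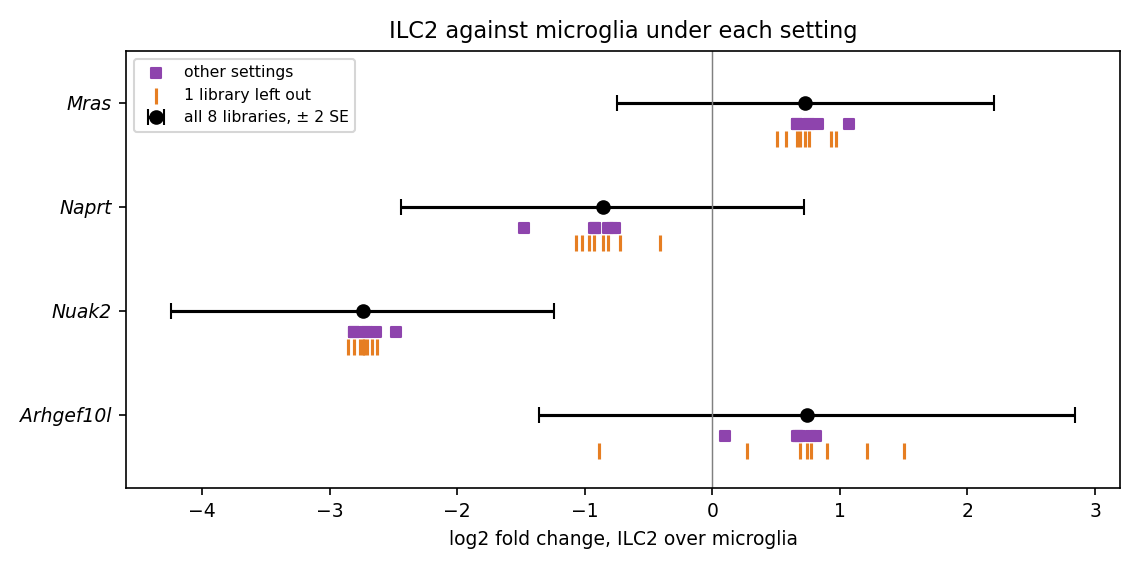
Log2 fold change of ILC2 over microglia (horizontal axis) for the 4 genes: black points with bars of 2 SE for all 8 libraries, squares for other scalings, tests, filters and sample sets, and ticks for fits with 1 library left out. Nuak2 stays between -2.86 and -2.48 in every setting drawn, and Arhgef10l crosses 0 once, at -0.89.

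Markers of the sorted populations followed the labels. The summed level of 12 ILC2 markers was 7980 and 8380 CPM in ILC2, 507 to 782 CPM in T cells and 65.8 to 80.9 CPM in microglia. For 10 T cell markers it was 768 and 991 CPM in ILC2, 8520 to 11600 CPM in T cells and 20.1 to 50.1 CPM in microglia, with Cd6 at 0 in ILC2. The 14 microglia markers summed to 1610 and 2120 CPM in ILC2, 1250 to 3130 CPM in T cells and 73800 to 98200 CPM in microglia, and none was at 0 in any population.

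Microglia transcripts were present at a low level in both lymphocyte populations. The microglia marker sum in the ILC2 libraries was 1.86% and 2.45% of the microglia mean, with single markers from 0.53% to 3.91%. Relative to its own microglia mean, Mras stood at 142% and 189% in the ILC2 libraries and Naprt at 60.8% and 49.1%. Nuak2 stood at 14.7% and 15.1% of its microglia mean, and Arhgef10l at 283% and 52.0%. In the T cell libraries the marker sum was 1.45%, 2.90% and 3.62% of the microglia mean, with single markers from 0.0129% to 5.0%. At those shares, the microglia level of Nuak2 would amount to 7.68, 24.3 and 20.9 counts in the T cell libraries and that of Mras to 3.42, 10.8 and 9.32, and both were observed at 0. For Naprt the same shares amount to 5.48, 17.3 and 15.0 counts, and for Arhgef10l to 3.74, 11.8 and 10.2, again with 0 observed. The reads in ILC2 and the zeros in T cells were both criteria by which the genes were chosen. Nothing about microglia transcripts in ILC2 or T cells is therefore read from the 4 genes.

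Markers of other cell types differed between libraries of a population. The 7 neutrophil markers in the table summed to 88.5 and 135 CPM in ILC2, 87.7 to 418 CPM in T cells, and 74300, 12500 and 87600 CPM in microglia, with Cxcr2 at 0 in T cells. Microglia 2, with the lowest neutrophil sum, had the highest microglia level of Naprt and Arhgef10l and the lowest of Mras and Nuak2. With microglia 2 as the only microglia library, an alternative chosen after seeing the data, the log2 fold changes of ILC2 over microglia were 1.07 for Mras, -1.48 for Naprt, -2.48 for Nuak2 and 0.10 for Arhgef10l. Border macrophage and monocyte markers (9 genes) summed to 652 and 454 CPM in ILC2, 1420 to 2400 CPM in T cells and 999 to 5910 CPM in microglia, with Cd163 and Lyve1 at 0 in ILC2 and Mrc1 and Lyve1 at 0 in T cells. Eosinophil markers (4 genes) summed to 472 and 579 CPM in ILC2 and to 1010, 1130 and 3790 CPM in T cells. In microglia the eosinophil sums were 1200, 926 and 42.8 CPM. The part of these other cell types in the levels of the 4 genes was not tested.

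The pattern that chose the genes was rare in the table. Of 8790 genes with at least 3 counts in every ILC2 and microglia library, 55 (0.626%) had 0 counts in all 3 T cell libraries. Ranked by the lowest of the 5 ILC2 and microglia libraries, Mras was first at 20.2 CPM, Naprt second at 20.2 CPM, Nuak2 in place 4 at 8.47 CPM and Arhgef10l in place 6 at 6.57 CPM. These places rest on the counts that chose the genes and are a description only. The pattern alone does not set the 4 genes apart from the rest of the 55. Place 3 was held by Prss34, a basophil protease gene, at 16.9 CPM, with 167 and 608 CPM in ILC2 and a mean of 47.5 ± 45.6 CPM in microglia (SD, n = 3). Place 5 was held by Dstyk at 7.27 CPM, a kinase gene, followed after Arhgef10l by Depdc7 at 5.07, Rad51b at 4.52, 1810021B22Rik at 4.36 and Syt3 at 2.99 CPM. Basophil and mast cell markers (8 genes, Prss34 among them) summed to 409 and 1260 CPM in ILC2, 16.3 to 83.4 CPM in T cells and 133 to 354 CPM in microglia, and of these Prss34 was the marker at 0 in T cells.

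The count of genes with this pattern moved with the minimum and the libraries asked for. With at least 10 counts in each ILC2 and microglia library it was 32 of 8158 genes (0.392%), and with at least 1 it was 68 of 9178 (0.741%). Leaving out a library asks for less and can only add genes: the count was 104 without ILC2 1, 93 without ILC2 2, 89 without T cells 1, 113 without T cells 2 and 103 without T cells 3. Of the other 2 arrangements, 40 of 8242 genes (0.485%) were at 0 in both ILC2 libraries with at least 3 counts in every other library, and 124 of 9031 (1.37%) were at 0 in all 3 microglia libraries.

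Just outside the pattern lay genes with 1 to 3 counts pooled over the T cell libraries. The 5 with the highest lowest level in ILC2 and microglia were Mmp2 (11.6 CPM, 3 T cell counts), Ppap2c (8.71 CPM, 3 counts), Rxrg (5.81 CPM, 1 count), Gprc5c (4.83 CPM, 3 counts) and Hcar2 (3.64 CPM, 2 counts). By this lowest level alone, Mmp2, a gelatinase gene, and Ppap2c reached Nuak2 and Arhgef10l with only a few T cell reads. The means of Ppap2c, 11.8 CPM in ILC2 and 22.1 CPM in microglia, lay below those of Arhgef10l. Among the 5913 genes at or above the lowest single-library level of the 4 genes, 6.57 CPM, in all 5 ILC2 and microglia libraries, 5778 (97.7%) had reads in every T cell library. Another 108 (1.83%) were at 0 in 1 T cell library, 21 (0.355%) in 2, and 6 (0.101%) in all 3: the 4 genes, Prss34 and Dstyk. An empty value in a single library was more common: of the genes at or above that level in all other libraries of a population, 0.719% to 2.19% were at 0 in the remaining library.

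**Figure D3:**
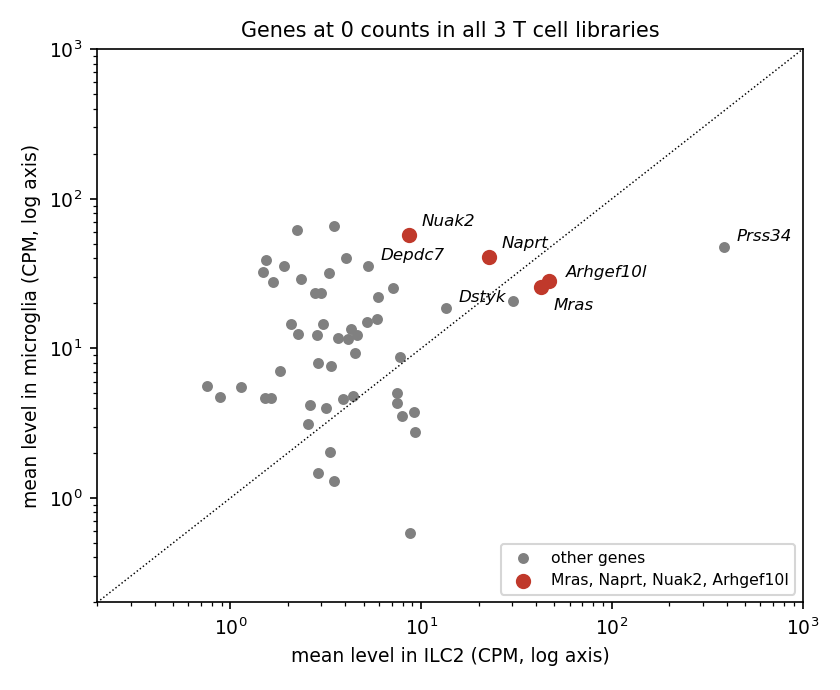
Mean level in ILC2 (horizontal) against microglia (vertical), in CPM on log axes, for the 55 genes with 0 counts in all 3 T cell libraries and at least 3 counts in every other library; the dotted line marks equal levels. Mras and Arhgef10l lie on the ILC2 side, Naprt and Nuak2 on the microglia side, and Prss34 lies farthest to the right at 388 CPM in ILC2.

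Genes whose levels followed those of the 4 genes were ranked by Pearson's r of log2(CPM + 1) over the 8 libraries, as a description, since libraries of a population share their cell type. Nearest to Mras were 1700030K09Rik (r = 0.986), Cysltr1 (0.980), the gene of a cysteinyl leukotriene receptor, and Plcl1 (0.973). Cysltr1 averaged 226 ± 105 CPM in ILC2, 0.431 ± 0.747 CPM in T cells and 131 ± 34.0 CPM in microglia (SD, n = 2, 3 and 3), far above Mras in counts but in the same order. Closest to Naprt were Mmp2 (0.991), 1810021B22Rik (0.989) and Mctp1 (0.981), and closest to Nuak2 were Adcy9 (0.994), an adenylate cyclase gene, Dcxr (0.993) and Depdc7 (0.992). For Arhgef10l they were Notch3 (0.988), the gene of a Notch receptor, Acvr2a (0.964), of an activin receptor, and B3galt5 (0.962). Notch3 had the same split as Arhgef10l within ILC2, at 12 and 2.93 CPM in ILC2 1 and ILC2 2, with 0 counts in T cells and 2.02 to 8.98 CPM in microglia. Between the 4 genes themselves r ran from 0.806 for Nuak2 with Arhgef10l to 0.954 for Mras with Naprt, over libraries of which 3 share the value 0 by the choice of the genes.

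Of the relatives and partners shown beside the 4 genes, Rras, Shoc2, Nadsyn1, Nampt and Ppp1r12a had reads in every T cell library. Nuak1 and Arhgef10 did not. Among the other tested genes of the same pathways, Vav2, Plekhg1, Melk, Bst1 and Fgd5 were at 0 counts in all 3 T cell libraries. Vav2 was also among the 55 genes with the pattern that chose the 4. Some pathway genes with too few counts to be tested, Sarm1 and Brsk2 among them, were at 0 in T cells as well. Rras, the R-RAS GTPase gene named with Mras, averaged 13.2 CPM per kb in ILC2, 9.57 in the T cells and 23.2 in microglia, and Shoc2, the scaffold of the MRAS complex, 10.4, 11.8 and 8.85 in the same order. Nadsyn1, the last enzyme of the route that Naprt starts, averaged 5.94 CPM per kb in ILC2, 3.36 in the T cells and 1.06 in microglia. Its libraries ran from 2.17 to 9.71 in ILC2, 1.1 to 7.54 in T cells and 0.489 to 2.03 in microglia, so T cells overlapped both others. Nampt, chosen after its values were seen, averaged 3.41 CPM per kb in ILC2, 7.34 in the T cells and 12 in microglia. Its ranges overlapped, at 1.93 to 4.89 in ILC2, 4.78 to 9.73 in T cells and 4.39 to 17.2 in microglia. None of Rras, Shoc2, Nadsyn1 and Nampt was called in any of the 3 comparisons.

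Nuak1, the paralog of Nuak2, was at 0 and 0 CPM in ILC2, at 0.325, 0 and 0 CPM in T cells, and at 12.8, 10.6 and 30.5 CPM in microglia. In microglia both NUAK kinase genes had reads, while in ILC2 Nuak2 had reads and Nuak1 had none. Nuak1 was called lower in T cells than in microglia (adjusted p = 0.047 by edgeR), a call that was lost without T cells 2, without T cells 3 and without any microglia library, with the adjusted p reaching 0.335 over the alternatives. Between ILC2 and microglia the adjusted p of Nuak1 was 0.0504 by edgeR, and between ILC2 and T cells it was 0.732. Arhgef10, the paralog of Arhgef10l, was low throughout: 11.9 and 0 CPM in ILC2, 1.52, 0.344 and 0 in the T cells, and 0, 0.691 and 7.08 in microglia. Ppp1r12a, the gene of the myosin phosphatase subunit that binds NUAK kinases, averaged 7.24 CPM per kb in ILC2, 10.9 across the T cells and 5.88 in microglia. It was called in none of the 3 comparisons.

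**Figure D4:**
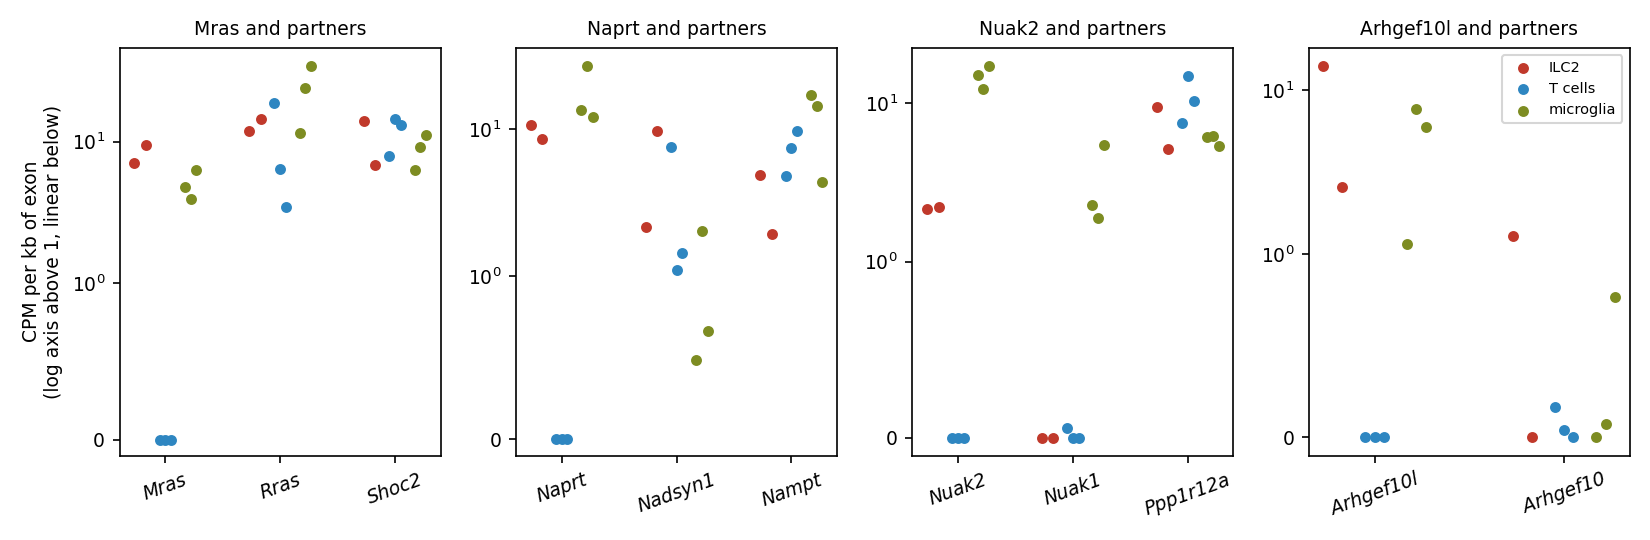
Level in CPM per kb of exon (log axis above 1, linear below) of each of the 4 genes beside 1 or 2 relatives or partners, with a point per library for ILC2, T cells and microglia from left to right. Each of the 4 genes has its T cell points at 0, where Rras, Shoc2, Nadsyn1, Nampt and Ppp1r12a have reads in every library and Nuak1 and Arhgef10 do not.

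The 7 lists of pathway genes held 170 tested genes apart from the 4. Between ILC2 and T cells edgeR called 0 of them, against 0.923% of all genes called (0.431% higher and 0.492% lower). At an unadjusted p under 0.05 there were 16 of the 170, against 1221 of all 13000 genes tested. DESeq2 called 9 of the 170 and limma-voom 3, against 4.07% and 2.25% of all genes. Between ILC2 and microglia 2 were called higher and 8 lower, against 9.75% of all genes called. Between T cells and microglia 6 were called higher (5.91% of all genes) and 13 lower (7.13%), against 13% in all. For ILC2 with microglia DESeq2 called 25 and limma-voom 21, against 17.9% and 16.0% of all genes, and for T cells with microglia they called 30 and 31, against 20.9% and 19.5%. The median log2 fold changes of the 170 genes were -0.11 for ILC2 over T cells, -0.01 for ILC2 over microglia and 0.05 for T cells over microglia, against 0.00, -0.01 and 0.00 over all genes tested. By list, the median for ILC2 over microglia was -0.07 for RAS family GTPases, 0.19 for the SHOC2 complex and RAF-ERK cascade, 0.03 for NAD synthesis, 0.02 for NAD consumption, 0.48 for LKB1 and AMPK-related kinases, 0.24 for myosin phosphatase and Hippo genes and -0.16 for Dbl-family exchange factors.

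Around Mras, 26 other RAS family GTPase genes were tested. Ralb, which acts in exocytosis and survival signalling, and Gem, an inhibitor of calcium channels, were called lower in ILC2 than in microglia, and Ralb also in T cells. Gem was at 30.0 and 24.8 CPM in ILC2, 136, 107 and 72.6 in the T cells, and 248, 286 and 169 in microglia, with a log2 fold change of -3.09 ± 0.43 (SE; adjusted p = 0.00186 by edgeR) for ILC2 over microglia. Of 32 genes of the SHOC2 complex and the RAF-ERK cascade, Rasgrp1 and Ppp1cc were called higher and Rasa4 and Dusp6 lower in ILC2 than in microglia. Rasgrp1, a RAS activator of lymphocytes, was at 112 and 62.8 CPM in ILC2 and at 0, 0.0987 and 1.56 CPM in microglia, and Ppp1cc, a catalytic PP1 subunit, at 50.7 and 74.9 CPM against 9.9, 3.26 and 13.1 CPM. Between T cells and microglia, Ppp1ca, Rasgrp1 and Rasgrp2 were called higher and Map2k1, Mapk3, Rasgrp3, Rasa4 and Dusp6 lower. DESeq2 called 7 of the 32 between ILC2 and microglia and 8 between T cells and microglia, and limma-voom 6 and 9. Dusp6, an ERK phosphatase that ERK activity induces, was at 67.3, 78.7 and 51.0 CPM in T cells and at 678, 592 and 442 CPM in microglia.

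Around Naprt, edgeR called 0 of 13 other NAD synthesis genes in any comparison. At an unadjusted p under 0.05 there were 0 for ILC2 with T cells, 2 for ILC2 with microglia and 2 for T cells with microglia, and DESeq2 and limma-voom each called 0, 1 and 2. In the same order, 1221, 3126 and 3662 of all 13000 genes tested had an unadjusted p under 0.05. Over all genes DESeq2 called 4.07%, 17.9% and 20.9%, and limma-voom 2.25%, 16.0% and 19.5%. Of 20 NAD-consuming genes, Parp9 was called lower in ILC2 than in microglia, at 33.6 and 18.6 CPM in ILC2 against 85.6, 103 and 102 CPM in microglia. Art2b, an ADP-ribosyltransferase gene of T cells, was called higher in T cells than in microglia, at 16.3, 44.2 and 55.6 CPM against 0, 0 and 0. Cd38, the gene of a major NAD hydrolase, was at 186 and 107 CPM in ILC2, 77.0, 125 and 106 in the T cells, and 0, 12.2 and 0 in microglia, with an adjusted p of 0.078 by edgeR for ILC2 with microglia.

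Around Nuak2, edgeR called 0 of 17 other LKB1 and AMPK-related kinase genes between ILC2 and microglia (6 at an unadjusted p under 0.05, 4 called by DESeq2 and 3 by limma-voom). Of all 13000 genes tested, edgeR called 9.75%, DESeq2 17.9% and limma-voom 16.0%, and 3126 had an unadjusted p under 0.05 by edgeR. Nuak1, Stradb and Prkab1 were called lower in T cells than in microglia. Stradb, a pseudokinase gene of the LKB1 complex, was at 16.2 and 22.1 CPM in ILC2, 13.3, 6.2 and 13.9 in the T cells, and 67.7, 58.3 and 73.7 in microglia, so that it shared with Nuak2 its highest level in microglia. Of 19 myosin phosphatase and Hippo genes, edgeR called 0 between ILC2 and microglia, with 1 at an unadjusted p under 0.05. DESeq2 called 1 and limma-voom 0, against the same figures over all genes. Stk4, a Hippo kinase gene, was called higher by edgeR in T cells than in microglia.

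Around Arhgef10l, 44 other Dbl-family exchange factor genes were tested. Vav1, Fgd2 and Fgd4 were called lower in ILC2 than in microglia, and Arhgef39, Trio, Fgd2 and Fgd4 lower in T cells than in microglia, with Arhgef1 higher in T cells. Fgd2, a CDC42 exchange factor gene, was at 9.93 and 4.36 CPM in ILC2, 0, 9.78 and 8.56 in the T cells, and 194, 336 and 262 in microglia. Trio was at 6.54 and 10.5 CPM in ILC2, 0.976, 0.275 and 0.796 in the T cells, and 10.3, 59.8 and 21.1 in microglia.

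Most of these list calls were lost with fewer libraries in the fit. Of the 10 calls between ILC2 and microglia, 2 (Gem and Rasgrp1) held with each of the 8 libraries left out in turn. The other 8 were lost with at least 1 omission: 8 without ILC2 2, 8 without microglia 2, 6 without each of ILC2 1, microglia 1 and microglia 3, 3 without T cells 3, 2 without T cells 1 and 2 without T cells 2. Of the 19 calls between T cells and microglia, 6 held in each of the 8 omissions (Art2b, Dusp6, Fgd2, Ralb, Rasgrp1 and Stradb). Of the rest, 13 were lost without microglia 2, 10 without microglia 1, 9 without T cells 3, 8 without T cells 1, 8 without microglia 3, 6 without T cells 2 and 2 without either ILC2 library. With microglia 2 as the only microglia library, Gem and Rasgrp1 kept their calls between ILC2 and microglia and the other 8 lost theirs. Between T cells and microglia 6 calls were kept in that setting (Art2b, Dusp6, Prkab1, Ralb, Rasgrp1 and Trio) and 13 were lost, Fgd2 (adjusted p = 0.0732 by edgeR) and Stradb (0.157) among them. The fold changes moved less than the calls: of the calls lost in an omission, 7 of 8 between ILC2 and microglia and 8 of 13 between T cells and microglia kept a fold change within 1.5 times of the full fit in every omission. The call on Ppp1cc was lost whichever library was left out. Some calls were also lost in the other alternatives. Ppp1ca lost its call with RLE scaling, DESeq2 and no filter, and Stk4 with RLE scaling and no filter. Between ILC2 and microglia, Ppp1cc lost its call with no filter and Rasa4 with limma-voom. Dusp6 and Vav1 lost theirs between ILC2 and microglia with only the 2 populations compared. No called list gene changed sign in any omission or alternative.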

How the data were processed

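Reads of 75 bp were counted per gene in ILC2, T cells and microglia. Per the submitters' processing notes, the tools were STAR 2.5.3a (an aligner), Cufflinks 2.0, DESeq2 1.1, FastQC 1.0.0 and bcl2fastq 2.20.0.422, with build mm10. Which of them counted reads, and whether by strand, is not given in the sources used here. The deposited table is titled as normalized, but its values are whole counts with unequal totals, so they were taken as raw counts that the authors had not scaled. Of 24423 rows, 24394 were kept: 27 had symbols turned into dates (0.0425% to 0.102% of reads), and 2 held reads outside genes (53.8% to 61.0%) and ambiguous reads (0.338% to 1.23%). Of 9 value columns, 1 was not used. Column headings carry no replicate numbers, so library numbers follow the columns, do not pair populations, and libraries were treated as independent.

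edgeR 4.0.16 (R 4.3.3, limma 3.58.1) scaled the libraries by TMM (factors 0.822 to 1.18) and fitted all 8 in 1 quasi-likelihood model with 3 groups, over the 13000 genes whose mean count reached 10. P-values were two-sided and Benjamini-Hochberg adjusted over all genes tested. The common biological coefficient of variation stood at 0.967. SEs were derived from the F statistic and the fold change. DESeq2 1.42.0, limma-voom, other scalings, no filter, only the 2 populations compared and omission of each library were alternatives. CPM per kb uses the merged exon length of GENCODE M21. In the lists, 2 older symbols were matched through RefSeq synonyms. A further list of pathway genes is not reported here.

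The 4 genes, the pathway and marker lists and the tests were chosen with earlier results of these data known. Named were the 4 genes, the called genes and first partners in each list, the 3 genes closest to each of the 4 by Pearson's r, the 10 top genes of the pattern and the 5 just outside it; Nampt, Cd38 and second partners were added after their values were seen.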

Additional observations from a re-analysis of the deposited data

How the results depend on the processing

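The fold changes of Mras, Naprt, Nuak2 and Arhgef10l between ILC2 and microglia kept direction and side of the threshold in 54 of 60 alternative results. Nuak2 passed it with DESeq2 (-2.81), limma-voom (-2.72), only the 2 populations compared (-2.71) and without T cells 1 or 2. The omission ranges were 0.51 to 0.97 for Mras, -1.07 to -0.41 for Naprt, -2.86 to -2.63 for Nuak2 and -0.89 to 1.5 for Arhgef10l, whose sign reversed without ILC2 1 (-0.89); the cause was not tested. The median of all genes for ILC2 over microglia shifted by 0.12 with limma-voom and by 0.11 with microglia 2 alone, and for T cells over microglia by 0.15 with microglia 2 alone.

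Counts of called genes moved more. For ILC2 with microglia, limma-voom called 1024 higher and 1061 lower, DESeq2 1380 lower, microglia 2 as the only microglia library 307 higher and 242 lower, and omissions 342 to 584 higher and 369 to 714 lower. For ILC2 with T cells, DESeq2 called 239 higher and 290 lower, limma-voom 169 and 123, no filter 117 and 118, only the 2 populations 109 lower, and omissions 18 to 52 higher and 35 to 73 lower. For T cells with microglia, DESeq2 called 1620 lower, limma-voom 1470 lower, microglia 2 alone 368 higher and 319 lower, and omissions 472 to 803 higher and 591 to 959 lower. The genes at 0 in T cells numbered 32 with a minimum of 10 counts and 61 to 113 with a library left out. No paired analysis was possible because the column headings carry no replicate numbers. All ILC2 values rest on 2 libraries, and the 0 counts in T cells allow up to 0.0888 CPM.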
